A study of Mus musculus with 32 samples.

Results

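The transcripts described here are those of interleukin-6 (IL-6) family signalling, with Csf1 and Il13ra2 beside them, in an adipocyte experiment. They are the secreted ligands Il6, Lif and Csf1, the receptor chains Il6ra, Il6st, Osmr, Lifr and Il13ra2, the transcription factor Stat3 and its feedback inhibitor Socs3. These 10 genes were chosen by symbol from 57186 genes listed, with earlier results of these data known. All 10 were among the 14428 genes that passed the filter on low counts. Il6 and Lif would not have passed it in the libraries without TNF alone, so their presence in the test rests on the libraries in which they are high. Csf1 and Il13ra2 do not use the shared receptor of the family.

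The cells were 3T3-L1 adipocytes, made in culture from a mouse preadipocyte line and treated for 24 h. In 4 of the 8 groups they received DMSO vehicle, SCO, CAP7 or the PPARγ agonist rosiglitazone (ROSI) alone, here called basal, and in the other 4 the same treatments together with TNF-alpha (TNF). The labels do not spell out SCO or CAP7 and give no dose; the title of the series names an Artemisia scoparia extract. Each group had 4 libraries of 3' end counts, and the labels call them biological replicates without saying whether they were separate cultures, so p-values measure the spread between these libraries, which may be technical.

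IL-6 family cytokines act through receptor complexes that share the signalling chain gp130, the product of Il6st. IL-6 first binds its own receptor, Il6ra, whereas LIF pairs gp130 with Lifr and oncostatin M pairs it with Osmr. The complexes activate JAK kinases and STAT3, and STAT3 induces Socs3, which binds gp130 and JAKs and shuts the signal down. In fat tissue, IL-6 and the macrophage growth factor CSF1 are released during inflammation, and gp130 cytokines are known to act on adipocytes directly. Il13ra2 encodes a receptor for IL-13 that is mostly regarded as a decoy.

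The libraries held between 11.3 and 37.7 M counts, where M stands for 1e6, with a median of 20.9 M. Levels below are counts per 1e6 (CPM) with TMM scaling, and differences are log2 fold changes ± SE from edgeR's quasi-likelihood fit of all 32 libraries, with p-values adjusted by Benjamini-Hochberg over all tested genes and called under 0.05. A CPM is not divided by transcript length, so levels are compared within a gene and not between genes. Adipocyte markers (Adipoq, Fabp4, Plin1, Cidec, Lipe, Pparg, Cebpa and Slc2a4) summed to 29580 to 31420 CPM in basal DMSO libraries and 8772 to 10530 CPM with TNF, so the labelled cell type was present in both. Macrophage and leukocyte markers summed to 11.2 to 15.5 CPM in basal DMSO and 39.6 to 51.1 CPM with TNF. Of those 10 markers, 4 were tested, with Cd14 and Cd68 rising and Csf1r and Lyz2 not called, and 4 of 10 had no count in any basal DMSO library. Preadipocyte and fibroblast markers summed to 3235 to 3768 CPM in basal DMSO, 1931 to 2487 CPM over the basal compound groups, 1817 to 1958 CPM with TNF, and 1224 to 2013 CPM over the groups with TNF and a compound. The part of these marker shifts in the results below was not tested, and in bulk RNA fewer cells of a type and less RNA per cell cannot be told apart.

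Proximal promoters are shown for Il6, Csf1, Socs3 and Il13ra2, picked after the motif search because these genes rose with TNF, were lower with every compound in its presence and had a motif match. Il6st, Osmr and Lifr moved in the same way but had no match, so the windows shown do not stand for the set. The windows are the 250 bases before the RefSeq start site on GRCm38.p6, which is not the build of the counts, and capitals mark matches to 4 short motifs searched on both strands. These were NF-kB (GGGNNTTNCC), STAT (TTCNNNGAA), AP-1 (TGANTCA) and C/EBP (TTNNGCAA). The Il6 window (chr5:30012864-30013113, plus strand) held, from 5′ to 3′, an AP-1, a C/EBP and an NF-kB match, the last at -44 to -35 from the start site.
Il6: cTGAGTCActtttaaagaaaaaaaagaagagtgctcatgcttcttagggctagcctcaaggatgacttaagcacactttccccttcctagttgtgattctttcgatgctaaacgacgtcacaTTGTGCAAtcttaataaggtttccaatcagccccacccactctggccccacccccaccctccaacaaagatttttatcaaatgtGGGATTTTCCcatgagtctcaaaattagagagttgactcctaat
The Csf1 window (chr3:107760470-107760719, minus strand) held an NF-kB match on the opposite strand at -154 to -145.
Csf1: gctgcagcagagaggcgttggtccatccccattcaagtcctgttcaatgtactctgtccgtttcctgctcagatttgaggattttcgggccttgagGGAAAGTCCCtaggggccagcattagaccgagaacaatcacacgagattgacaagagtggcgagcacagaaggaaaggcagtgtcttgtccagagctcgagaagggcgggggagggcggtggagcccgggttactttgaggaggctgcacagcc
The Socs3 window (chr11:117969367-117969616, minus strand) held a STAT match at -154 to -146.
Socs3: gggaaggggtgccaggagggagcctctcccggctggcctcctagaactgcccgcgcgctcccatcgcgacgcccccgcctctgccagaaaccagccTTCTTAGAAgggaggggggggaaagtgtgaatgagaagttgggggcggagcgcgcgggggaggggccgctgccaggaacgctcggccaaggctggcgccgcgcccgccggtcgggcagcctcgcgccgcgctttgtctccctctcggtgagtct
The Il13ra2 window (chrX:147429193-147429442, minus strand) held an AP-1 match at -193 to -187.
Il13ra2: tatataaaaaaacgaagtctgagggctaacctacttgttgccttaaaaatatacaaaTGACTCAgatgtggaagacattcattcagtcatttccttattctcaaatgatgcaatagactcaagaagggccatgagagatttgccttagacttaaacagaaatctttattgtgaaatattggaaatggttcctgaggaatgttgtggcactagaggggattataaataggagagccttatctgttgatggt
Lif also held an AP-1 match, at -228 to -222, while the windows of Il6ra, Il6st, Osmr, Lifr and Stat3 held none of the 4. Among 32851 mouse promoter windows of the same length, the NF-kB letters were found in 4.11%, the STAT letters in 7.02%, the AP-1 letters in 6.75% and the C/EBP letters in 9.56%. A match describes letters and does not show binding.

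TNF raised every one of the 10 transcripts in vehicle-treated adipocytes (edgeR, adjusted p under 0.05), against 26.7% of all tested genes called higher and 27.5% called lower. For Il6 and Lif a rise was partly fixed in advance, as they passed the filter through libraries with TNF. The other 8 members were all called higher. As all 10 were chosen with earlier results of these data known, their count against these shares is no independent support. The steepest rise was that of Il13ra2, and the smallest that of Il6ra. The median log2 change of the members, Il6 and Lif included, was 2.43, and that of all tested genes -0.01. In every one of these comparisons the 4 libraries with TNF lay above the 4 without it, and how many of all tested genes separate so was not counted.

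**Figure D1:**
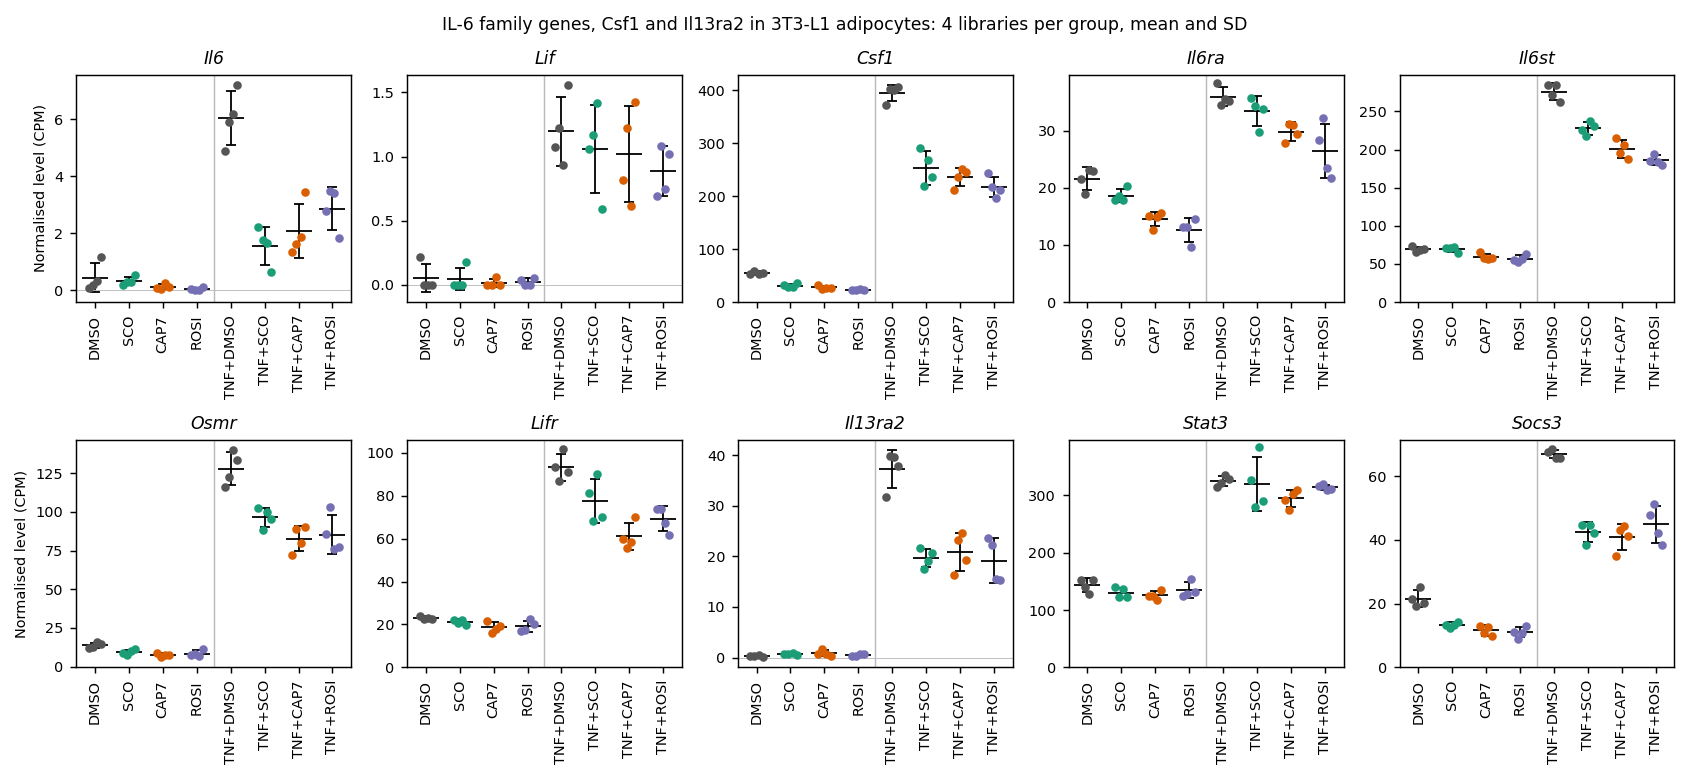
Level of each of the 10 transcripts (vertical axis, CPM, linear and scaled to each panel) in the 8 groups, with 1 point per library and bars for the mean and SD of 4 libraries. Each TNF group lies above the group with the same treatment without TNF, and over all treatments the 16 libraries with TNF overlap the 16 without it only for Il6 and Il6ra. How many of all tested genes show no such overlap was not counted.

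Of the ligands, Il6 was close to the detection limit without TNF. It stood at 0.0868, 0.194, 0.330 and 1.18 CPM in the basal DMSO libraries and at 4.87, 5.91, 6.17 and 7.20 CPM with TNF. The groups did not overlap, and the difference was 3.93 ± 0.46 (adjusted p = 1.91e-09). Basal DMSO replicate 4 held 14 of the 24 basal Il6 counts, and without it the difference was 4.94.

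Lif, the ligand of the Lifr and gp130 pair, had 5 counts in all in basal DMSO, every one in replicate 1 (0.217 CPM), and the other 3 libraries had none. With TNF it reached 1.07, 1.22, 0.936 and 1.56 CPM. The fitted difference was 3.95 ± 0.70 (adjusted p = 8.60e-06), and the ratio of summed counts was 15.6, with a counting interval of 6.48 to 48.8. Left without replicate 1, basal DMSO had no Lif count in 3 libraries, and no fold is given for them.

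Csf1 encodes the growth factor of macrophages. Its basal DMSO libraries held 53.8, 59.4, 52.4 and 54.3 CPM and the TNF libraries 372, 402, 400 and 405 CPM, a difference of 2.84 ± 0.09 (adjusted p = 5.08e-26). The gap between the groups was many times the spread within either.

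Among the receptor chains, Osmr rose most after Il13ra2. Osmr, the oncostatin M chain, went from 12.2, 13.01, 15.8 and 14.9 CPM to 116, 122, 140 and 133 CPM (3.21 ± 0.12, adjusted p = 5.17e-23). Lifr, the LIF chain, went from 24.1, 22.4, 23.1 and 22.4 CPM to 93.1, 86.8, 102 and 90.9 CPM (2.01 ± 0.10, adjusted p = 3.51e-20). The common chain Il6st went from 73.7, 66.4, 67.9 and 70.1 CPM to 285, 272, 285 and 262 CPM (1.99 ± 0.06, adjusted p = 1.12e-25). Il6ra, which gives a cell its own response to IL-6, changed least. It stood at 21.5, 18.8, 23.1 and 22.9 CPM without TNF and at 38.4, 34.6, 35.5 and 35.2 CPM with it (0.73 ± 0.11, adjusted p = 1.78e-07).

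Il13ra2 was almost silent in basal DMSO, at 0.347, 0.324, 0.462 and 0.0840 CPM from 21 counts in all. With TNF it stood at 31.8, 39.8, 39.6 and 37.8 CPM. The difference was 6.84 ± 0.28 (adjusted p = 3.23e-22), and the ratio of summed counts was 116 (counting interval 75.9 to 188).

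The signal transducer Stat3 stood at 152, 140, 128 and 153 CPM in basal DMSO and 316, 321, 336 and 330 CPM with TNF (1.18 ± 0.08, adjusted p = 4.19e-16). Its inhibitor Socs3 went from 21.6, 19.2, 25.4 and 20.2 CPM to 67.7, 68.4, 65.8 and 65.8 CPM (1.63 ± 0.10, adjusted p = 9.43e-17). Both pairs of groups were well apart.

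With TNF present, each compound lowered most of the set and none raised a member. SCO lowered 7 of 10 (of all genes, 8.09% were called lower and 13.2% higher), CAP7 lowered 8 (14.2% and 18%) and ROSI lowered 8 (16.3% and 19.6%). The median log2 differences of the members were -0.34, -0.62 and -0.57, and those of all genes 0.01, 0.00 and 0.00. Il6, Csf1, Il6st, Osmr, Lifr, Il13ra2 and Socs3 were lower with all 3, and Il6ra with CAP7 and ROSI. The 3 comparisons share the same 4 libraries of TNF plus DMSO. Adipocyte markers summed to 28710 to 57230 CPM in the groups with TNF and a compound, against at most 10530 CPM in TNF plus DMSO. Preadipocyte and fibroblast markers were called lower in 6, 3 and 5 of 7 with SCO, CAP7 and ROSI. Macrophage and leukocyte markers summed to 33.3 to 42.4, 30.1 to 34.02 and 27.3 to 31.5 CPM, against 39.6 to 51.1 CPM in TNF plus DMSO. The part of these 3 marker shifts in the lower levels was not tested.

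**Figure D2:**
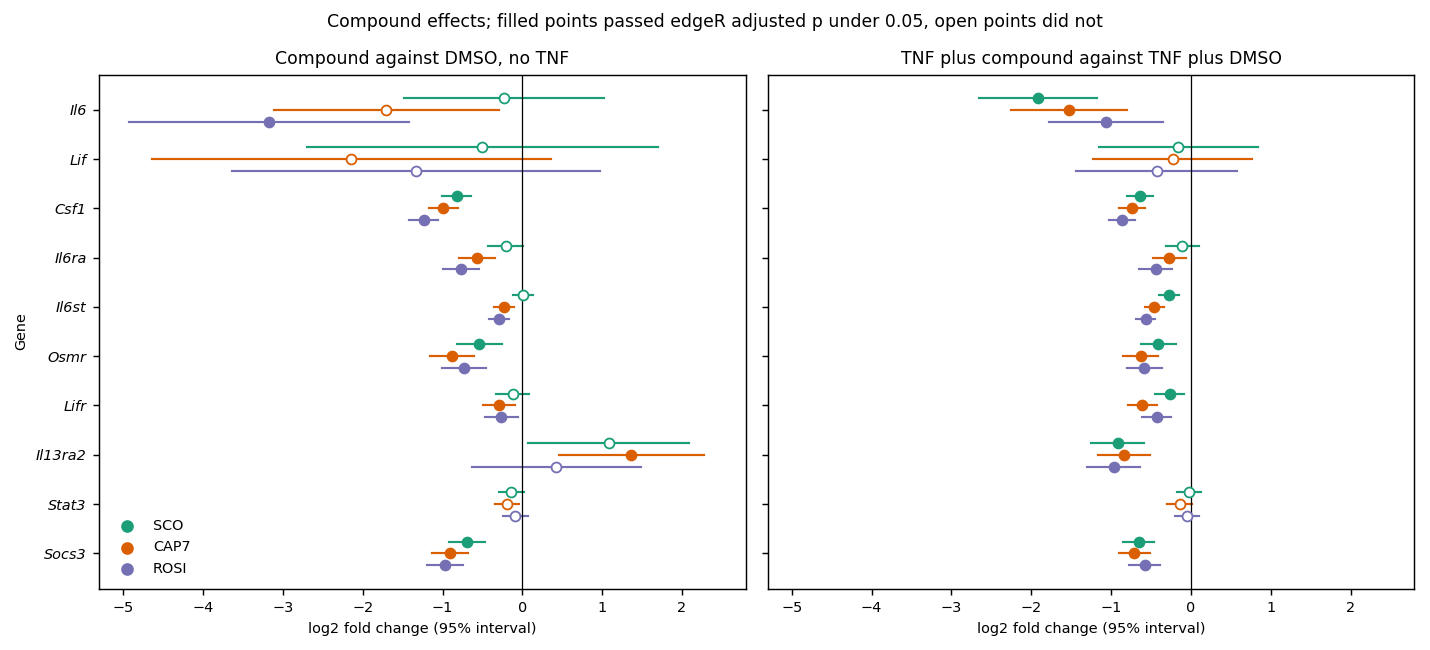
Log2 fold change against DMSO (horizontal axis) of each of the 10 transcripts for SCO, CAP7 and ROSI, without TNF (left) and with TNF in both groups (right), as points with 95% intervals from the edgeR fit; filled points were called. With TNF, Il6 sits lowest with SCO at -1.91, and Stat3 and Lif have intervals that reach across 0 for all 3 compounds.

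Il6 fell with all 3 compounds, with its lowest mean under SCO. Its libraries held 2.24, 1.75, 1.64 and 0.651 CPM with TNF plus SCO, 1.33, 1.63, 1.88 and 3.46 CPM with TNF plus CAP7, and 2.77, 3.47, 3.40 and 1.82 CPM with TNF plus ROSI. All 12 lay under the lowest library of TNF plus DMSO. The differences were -1.91 ± 0.37 for SCO (adjusted p = 0.000113), -1.53 ± 0.36 for CAP7 (adjusted p = 0.000883) and -1.06 ± 0.35 for ROSI (adjusted p = 0.0161). The ROSI call was lost without TNF plus ROSI replicate 4 (-0.90, adjusted p = 0.0678). SCO and ROSI differed by -0.85 (95% interval -1.60 to -0.10), which edgeR did not call (adjusted p = 0.127) and limma-voom did (-0.91, adjusted p = 0.0379).

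Csf1 fell with each compound in the presence of TNF. It stood at 290, 219, 269 and 236 CPM with SCO, 212, 236, 252 and 246 CPM with CAP7, and 244, 217, 197 and 211 CPM with ROSI. No compound library reached the 372 CPM of the lowest TNF plus DMSO library. The differences were -0.64 ± 0.08, -0.74 ± 0.08 and -0.86 ± 0.08 (adjusted p = 9.12e-08, 1.88e-09 and 2.81e-11). Lif showed no call, with differences of -0.16 (95% interval -1.16 to 0.84) for SCO, -0.23 (-1.23 to 0.77) for CAP7 and -0.43 (-1.44 to 0.58) for ROSI. These intervals include differences as large as those of Csf1, so such a change of Lif was not detectable at this depth.

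The common chain Il6st stood at 226, 218, 238 and 230 CPM with SCO, 215, 196, 206 and 188 CPM with CAP7, and 186, 195, 184 and 180 CPM with ROSI. All 12 lay under the lowest TNF plus DMSO library, at 262 CPM. The differences were -0.28 ± 0.06, -0.46 ± 0.06 and -0.57 ± 0.06 (adjusted p = 0.000643, 1.04e-07 and 5.71e-10). SCO and ROSI themselves differed, with Il6st 0.29 ± 0.06 higher in SCO (adjusted p = 0.000572).

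Osmr stood at 102, 88.1, 100.1 and 95.4 CPM with SCO, 72.3, 88.8, 79.8 and 90 CPM with CAP7, and 85.4, 103, 76.0 and 77.1 CPM with ROSI, all below the TNF plus DMSO libraries. Its differences were -0.41 ± 0.11, -0.63 ± 0.11 and -0.58 ± 0.11 (adjusted p = 0.00455, 1.20e-05 and 3.02e-05). No pair of compounds differed in Osmr by edgeR's test.

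Lifr was lower with each compound, and lower with CAP7 than with SCO. It stood at 81.1, 68.3, 89.98 and 70.02 CPM with SCO, 59.8, 55.8, 58.3 and 69.9 CPM with CAP7, and 73.9, 73.9, 67.5 and 61.7 CPM with ROSI. Only SCO overlapped TNF plus DMSO, through replicate 3. The differences were -0.27 ± 0.09, -0.61 ± 0.09 and -0.43 ± 0.09 (adjusted p = 0.0281, 8.37e-07 and 0.000181). The SCO call was lost without TNF plus DMSO replicate 3 (-0.22, adjusted p = 0.122) and without TNF plus SCO replicate 2 (-0.21, adjusted p = 0.132) or 4 (-0.22, adjusted p = 0.112). Lifr was 0.34 ± 0.09 higher with SCO than with CAP7 (adjusted p = 0.0113), a call that was lost without TNF plus SCO replicate 3 (0.27, adjusted p = 0.0875).

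Il6ra was lower with ROSI (28.4, 32.2, 23.5 and 21.8 CPM; -0.44 ± 0.10, adjusted p = 0.000661). With CAP7 it stood at 27.8, 31.2, 31.0 and 29.3 CPM (-0.27 ± 0.10, adjusted p = 0.0398), but that call was lost on leaving out any of 5 libraries, TNF plus CAP7 replicate 1 or 4 or TNF plus DMSO replicate 1, 3 or 4, where adjusted p ran from 0.0538 to 0.115. SCO left it uncalled (35.8, 34.3, 29.7 and 33.8 CPM; -0.11, 95% interval -0.31 to 0.10). Il6ra was 0.34 ± 0.10 higher with SCO than with ROSI (adjusted p = 0.0219), which did not hold without TNF plus ROSI replicate 3 (0.28, adjusted p = 0.0967) or 4 (0.26, adjusted p = 0.136), without TNF plus SCO replicate 1 (0.30, adjusted p = 0.0732), or when only the groups compared were fitted (adjusted p = 0.0552).

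Il13ra2 was lower with all 3 compounds, at 21.6, 17.5, 19.04 and 20.7 CPM with SCO, 16.3, 23.3, 24.5 and 19.3 CPM with CAP7, and 23.6, 22.2, 15.5 and 15.3 CPM with ROSI. The differences were -0.92 ± 0.16, -0.84 ± 0.16 and -0.97 ± 0.16 (adjusted p = 3.61e-05, 8.13e-05 and 7.92e-06). Between compounds the fitted differences ran from -0.08 to 0.13, with 95% intervals that lay between -0.41 and 0.47, so larger differences between compounds are outside these intervals.

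Socs3 was lower with each compound and Stat3 with none. Socs3 stood at 44.8, 38.4, 44.8 and 42.1 CPM with SCO, 35.0, 43.1, 44.2 and 41.3 CPM with CAP7, and 47.8, 51.2, 42.2 and 38.3 CPM with ROSI, with no overlap with TNF plus DMSO. The differences were -0.65 ± 0.10, -0.71 ± 0.10 and -0.58 ± 0.10 (adjusted p = 1.42e-06, 1.57e-07 and 5.54e-06). Stat3 stood at 328, 281, 384 and 290 CPM with SCO, 292, 275, 303 and 309 CPM with CAP7, and 317, 320, 310 and 312 CPM with ROSI. Its differences were -0.02 (95% interval -0.17 to 0.13), -0.14 (-0.29 to 0.01) and -0.05 (-0.20 to 0.10). Scaling by library size alone moved the median of all genes by -0.10 for CAP7 and -0.16 for ROSI, and with it Stat3 was called lower with CAP7 (-0.25, adjusted p = 0.00980) and ROSI (-0.21, adjusted p = 0.0268).

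**Figure D3:**
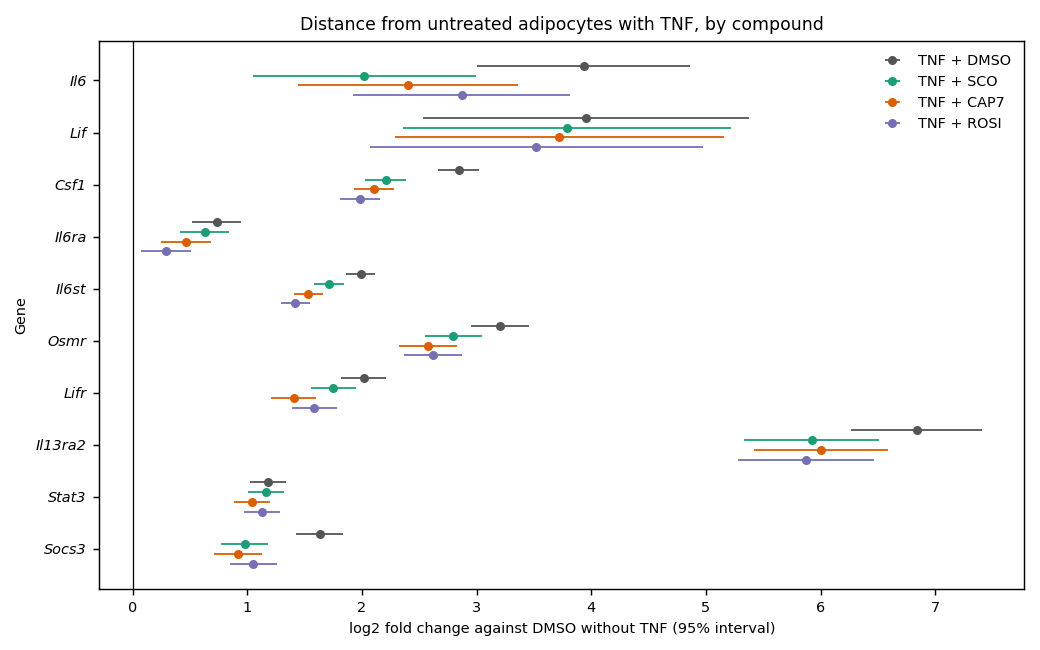
Log2 fold change against DMSO without TNF (horizontal axis) of each of the 10 transcripts in TNF plus DMSO and in TNF plus each compound, as points with 95% intervals from the edgeR fit. All points lie above 0, the lowest being that of Il6ra with ROSI at 0.29.

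Against basal DMSO, all 10 members were called higher with TNF plus SCO (25.2% of genes called higher), TNF plus CAP7 (21.4%) and TNF plus ROSI (24.9%). As above, Il6 and Lif entered the test through libraries with TNF. Single libraries did overlap basal DMSO: Il6 in TNF plus SCO replicate 4 (0.651 CPM) lay under basal DMSO replicate 4 (1.18 CPM), and Il6ra in TNF plus ROSI replicate 4 (21.8 CPM) lay within the basal DMSO range of 18.8 to 23.1 CPM. Il6ra with ROSI was nearest to basal DMSO (0.29 ± 0.11, adjusted p = 0.0227). That call was lost with scaling by library size alone (0.16, adjusted p = 0.245), when only the groups compared were fitted (0.27, adjusted p = 0.0636), and without basal DMSO replicate 1 (0.27, adjusted p = 0.0650) or 2 (0.23, adjusted p = 0.0993) or TNF plus ROSI replicate 1 (0.26, adjusted p = 0.0645) or 2 (0.18, adjusted p = 0.180).

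The drop in mean CPM from TNF plus DMSO to TNF plus a compound was expressed as a share of the TNF rise in DMSO. This description has no test and was added after the values had been seen. The share also counts any lowering by a compound without TNF. With ROSI, Il6ra went from a mean of 12.6 CPM without TNF to 26.5 CPM with it, and in DMSO from 21.6 to 35.9 CPM. These rises were alike in CPM, yet the share was 65.9%, so a share does not measure a weaker response to TNF. For Il6 the share was 79.9% with SCO, 70.9% with CAP7 and 56.8% with ROSI. For Socs3 the shares were 53.9%, 57.4% and 48.7%, for Il13ra2 47.5%, 44.3% and 49%, and for Csf1 41.6%, 46.5% and 52.3%. For the 4 chains of gp130 complexes the shares with SCO were 17.5% for Il6ra, 23.2% for Il6st, 27.6% for Osmr and 22.5% for Lifr, and with CAP7 or ROSI they ran from 34.1% to 65.9%. Stat3 and Lif, called lower with no compound, gave the lowest shares with each compound, at 2.73%, 16.8% and 6.06% for Stat3 and 12.2%, 15.6% and 27.4% for Lif with SCO, CAP7 and ROSI. Leaving out 1 library moved the share of Lif with SCO between -1.47% and 22.5%, and that of Stat3 with SCO between -4.57% and 14.3%. Leaving out any 1 of the 12 libraries behind a share left that of Il6 with SCO between 74.4% and 83.9%, and that of Il6ra with ROSI between 54.9% and 79.3%.

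Without TNF the compounds also lowered part of the set. SCO lowered 3 of 10 members (of all genes, 8.99% were called lower and 10.3% higher), CAP7 lowered 6 and raised 1 (15% and 15.2%), and ROSI lowered 7 (19% and 18.4%). Csf1, Osmr and Socs3 were lower with all 3 compounds, Il6ra, Il6st and Lifr with CAP7 and ROSI, and Il6 with ROSI. The members' median log2 differences were -0.22, -0.73 and -0.75, and those of all genes -0.01, -0.02 and -0.03. The 3 comparisons share the 4 basal DMSO libraries. Preadipocyte and fibroblast markers moved down in the same groups, with 6, 7 and 7 of 7 tested markers called lower. Adipocyte markers summed to 50870 to 57420 CPM with SCO, 40180 to 51330 with CAP7 and 58920 to 69320 with ROSI, against 29580 to 31420 in DMSO. Of these 8 markers, 4, 6 and 6 were called higher and 1 lower with each compound. Macrophage and leukocyte markers summed to 7.47 to 11.55, 4.39 to 8.34 and 4.9 to 5.7 CPM, against 11.2 to 15.5 CPM. The part of these 3 marker shifts was not tested.

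Csf1 fell the most of the well-counted members. Against basal DMSO at 52.4 to 59.4 CPM, it stood at 31.8, 27.8, 28.6 and 35.6 CPM with SCO (-0.83 ± 0.09, adjusted p = 6.77e-09), at 32.3, 24.9, 26.9 and 26.6 CPM with CAP7 (-0.99 ± 0.09, adjusted p = 3.21e-11) and at 22.0, 23.1, 25.4 and 23.2 CPM with ROSI (-1.23 ± 0.09, adjusted p = 4.92e-14). No library of a compound overlapped DMSO. SCO and ROSI differed from each other by 0.41 ± 0.09 (adjusted p = 0.00157).

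Socs3 stood at 13.3, 12.4, 13.3 and 14.3 CPM with SCO (-0.69 ± 0.11, adjusted p = 9.29e-06), 13.1, 10.8, 12.7 and 9.72 CPM with CAP7 (-0.91 ± 0.11, adjusted p = 1.93e-08) and 11.2, 9.05, 10.9 and 12.9 CPM with ROSI (-0.97 ± 0.11, adjusted p = 2.77e-09). All 12 were below the lowest basal DMSO library, at 19.2 CPM. Osmr was lower by a like amount, at -0.54 ± 0.14 with SCO, -0.89 ± 0.14 with CAP7 and -0.73 ± 0.14 with ROSI (adjusted p = 0.00407, 2.60e-06 and 3.97e-05). Its compound libraries ran from 6.21 to 11.5 CPM, under the 12.2 to 15.8 CPM of DMSO.

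Il6ra and Il6st were higher with SCO than with ROSI in the absence of TNF. Il6ra stood at 17.9, 18.5, 17.8 and 20.3 CPM with SCO, which overlapped DMSO (-0.21, 95% interval -0.43 to 0.01), at 12.7 to 15.5 CPM with CAP7 (-0.57 ± 0.11, adjusted p = 9.45e-05) and at 9.57 to 14.6 CPM with ROSI (-0.77 ± 0.11, adjusted p = 4.70e-07). Il6st was at 0.005 with SCO (95% interval -0.12 to 0.13), and was lower with CAP7 (-0.23 ± 0.06, adjusted p = 0.00414) and ROSI (-0.29 ± 0.06, adjusted p = 0.000289). Between compounds, Il6ra was 0.56 ± 0.11 and Il6st 0.30 ± 0.06 higher with SCO than with ROSI (adjusted p = 0.000417 and 0.000880). Against CAP7 the same differences were 0.36 ± 0.11 and 0.24 ± 0.06 (adjusted p = 0.0482 and 0.0174). The Il6ra call against CAP7 was lost on leaving out any 1 of the 8 libraries (0.29 to 0.39, adjusted p = 0.0605 to 0.162), with limma-voom (adjusted p = 0.0874), with no filter on low counts (adjusted p = 0.0511) and with the replicate block (adjusted p = 0.0502). The Il6st call was lost without basal CAP7 replicate 2, 3 or 4 or basal SCO replicate 1 or 3 (0.22 to 0.23, adjusted p = 0.0510 to 0.0684) and with no filter on low counts (adjusted p = 0.0825).

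Lifr moved little without TNF, by -0.29 ± 0.10 with CAP7 (adjusted p = 0.0225) and -0.26 ± 0.10 with ROSI (adjusted p = 0.0377). The CAP7 call was lost without basal CAP7 replicate 2 (-0.23, adjusted p = 0.107) or 3 (-0.28, adjusted p = 0.0555), without basal DMSO replicate 1 (-0.28, adjusted p = 0.0539) and with limma-voom (adjusted p = 0.0527). The ROSI call was lost without basal DMSO replicate 1, 2 or 3 or basal ROSI replicate 1 or 2 (-0.27 to -0.20, adjusted p = 0.0519 to 0.153), with limma-voom (adjusted p = 0.0667) and when only the groups compared were fitted (adjusted p = 0.0687). Stat3 was not called with any compound, its differences running from -0.19 to -0.09. With CAP7, at -0.19 (adjusted p = 0.0553), it passed by DESeq2 (adjusted p = 0.0393) and RLE scaling (adjusted p = 0.0452), among other settings.

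The 3 members near the detection limit gave weak evidence in the basal state. Il6 had 24 counts over the 4 libraries of DMSO, 20 with SCO, 10 with CAP7 and 3 with ROSI. ROSI was called lower (-3.18 ± 0.87, adjusted p = 0.00336), but 2 of its 4 libraries had no Il6 count and the call was lost without basal DMSO replicate 4 (-2.17, adjusted p = 0.0641) and with limma-voom (-2.47, adjusted p = 0.0607). Without basal ROSI replicate 4 the difference was -4.15. Il6 with CAP7 was at -1.70 (95% interval -3.11 to -0.30, adjusted p = 0.0594) and passed by DESeq2 (adjusted p = 0.0192).

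Il13ra2 had fitted differences above 0 with every compound in the basal state, and only that of CAP7 was called by edgeR. Its libraries held 0.788, 1.63, 0.670 and 0.323 CPM with CAP7 and 0.662, 0.747, 0.838 and 0.523 CPM with SCO, against at most 0.462 CPM in DMSO. CAP7 was called higher (1.37 ± 0.45, adjusted p = 0.0177), which was lost without basal CAP7 replicate 2 (0.82, adjusted p = 0.191), without basal DMSO replicate 4 (1.13, adjusted p = 0.0608) and with limma-voom (1.18, adjusted p = 0.278). SCO, at 1.08 ± 0.50, was not called (adjusted p = 0.132), though its 4 libraries lay above all 4 of DMSO and DESeq2 called it (adjusted p = 0.0435). ROSI, at 0.43, was not called, and its libraries at 0.225 to 0.602 CPM overlapped DMSO. Lif had 3, 1 and 2 counts with SCO, CAP7 and ROSI and is given no fold here.

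Whether a compound's difference from DMSO depended on TNF was tested as an interaction. Il13ra2 showed it for SCO (-1.997 ± 0.52, adjusted p = 0.0159, with 1.13% of genes called lower in that test) and for CAP7 (-2.20 ± 0.47, adjusted p = 0.000825, with 5.92%). Its fitted differences were above 0 without TNF and below 0 with it. Limma-voom called neither (-2.07, adjusted p = 0.196, and -2.03, adjusted p = 0.0767), and the basal counts behind them are low. For ROSI, Csf1 gave 0.37 ± 0.12 (adjusted p = 0.0325, with 10.1% called higher) and Il6st -0.28 ± 0.09 (adjusted p = 0.0277, with 4.51% called lower). That is, ROSI lowered Csf1 less on the log2 scale with TNF than without it, and Il6st more. The Csf1 call was lost with limma-voom and in 11 of the 16 fits that left out 1 library (0.31 to 0.36 in those, adjusted p = 0.0506 to 0.0942). The Il6st call was lost in 4 of 16 (-0.27 to -0.22, adjusted p = 0.0548 to 0.0839) and with no filter on low counts (adjusted p = 0.0994). Both calls thus hung on single libraries. For Il6st and Il13ra2 the interactions with the other compounds had the same direction and were not called. Il6st gave -0.28 ± 0.09 for SCO (adjusted p = 0.0564), called by DESeq2 (adjusted p = 0.0264), with at least 5 CPM (adjusted p = 0.0424), with only the groups compared (adjusted p = 0.0298), with the replicate block (adjusted p = 0.0496) and without basal SCO replicate 4 (adjusted p = 0.0367). For CAP7 it gave -0.22 ± 0.09 (adjusted p = 0.0781), called without TNF plus CAP7 replicate 1 (adjusted p = 0.0489). Il13ra2 gave -1.39 ± 0.55 for ROSI (adjusted p = 0.0815), called by DESeq2 (adjusted p = 0.0180), with no filter on low counts (adjusted p = 0.0138) and without basal ROSI replicate 1 (adjusted p = 0.0375). Socs3 gave 0.39 for ROSI, not called in the main fit. It was called with at least 5 CPM and without basal DMSO replicate 2, basal ROSI replicate 4 or TNF plus ROSI replicate 4. Whether these interactions differ between compounds was not tested.

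The direct comparisons of the compounds gave few calls. SCO was above ROSI for 4 members without TNF (Il6, Csf1, Il6ra and Il6st; 7.39% of all genes called higher) and for 2 with TNF (Il6ra and Il6st; 5.74%). The Il6 call (2.94 ± 0.89, adjusted p = 0.0203) was lost with limma-voom (2.76, adjusted p = 0.0757) and without basal ROSI replicate 1, 2 or 3 or basal SCO replicate 4 (2.59 to 2.94, adjusted p = 0.0556 to 0.0932), and rose to 3.92 without basal ROSI replicate 4. SCO was above CAP7 for 2 members without TNF (Il6ra and Il6st; 3.01%) and for 1 with TNF (Lifr; 4.13%). With TNF, Csf1 was 0.23 higher with SCO than with ROSI, not called in the main fit but called by DESeq2 and limma-voom, among other settings. Il6st with TNF was 0.18 higher with SCO than with CAP7, not called in the main fit but called by DESeq2 and limma-voom, among others. CAP7 and ROSI differed in 0 of 10 in either state by edgeR (5.39% and 3.48% of genes called higher, 6.27% and 5.09% lower). At an unadjusted p under 0.05 there were 2 without TNF and 0 with it. DESeq2, library size alone and no filter each called 1 and 0, and limma-voom 0 and 0. The shares of all genes at these settings are not given here. The doses are not given, so these are comparisons of the treatments as applied.

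Other genes of JAK-STAT signalling, from a list of 38 ligands, receptors, kinases, STATs and inhibitors beside the members, moved in both directions. Of the 30 tested, TNF raised 15 and lowered 5 (median log2 change 0.27), where 26.7% and 27.5% of all genes were called. With TNF present, SCO raised 1 and lowered 7, CAP7 raised 2 and lowered 11, and ROSI raised 4 and lowered 10 (medians -0.08, -0.10 and -0.16), where 13.2%, 18% and 19.6% of all genes were called higher and 8.09%, 14.2% and 16.3% lower. Without TNF, 0, 3 and 3 were raised and 3, 7 and 8 lowered, where 10.3%, 15.2% and 18.4% of all genes were called higher and 8.99%, 15% and 19% lower. Some of these counts lie near or under the shares of all genes, such as the 3 of 30 lowered by SCO without TNF and the counts raised by each compound in either state.

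**Figure D4:**
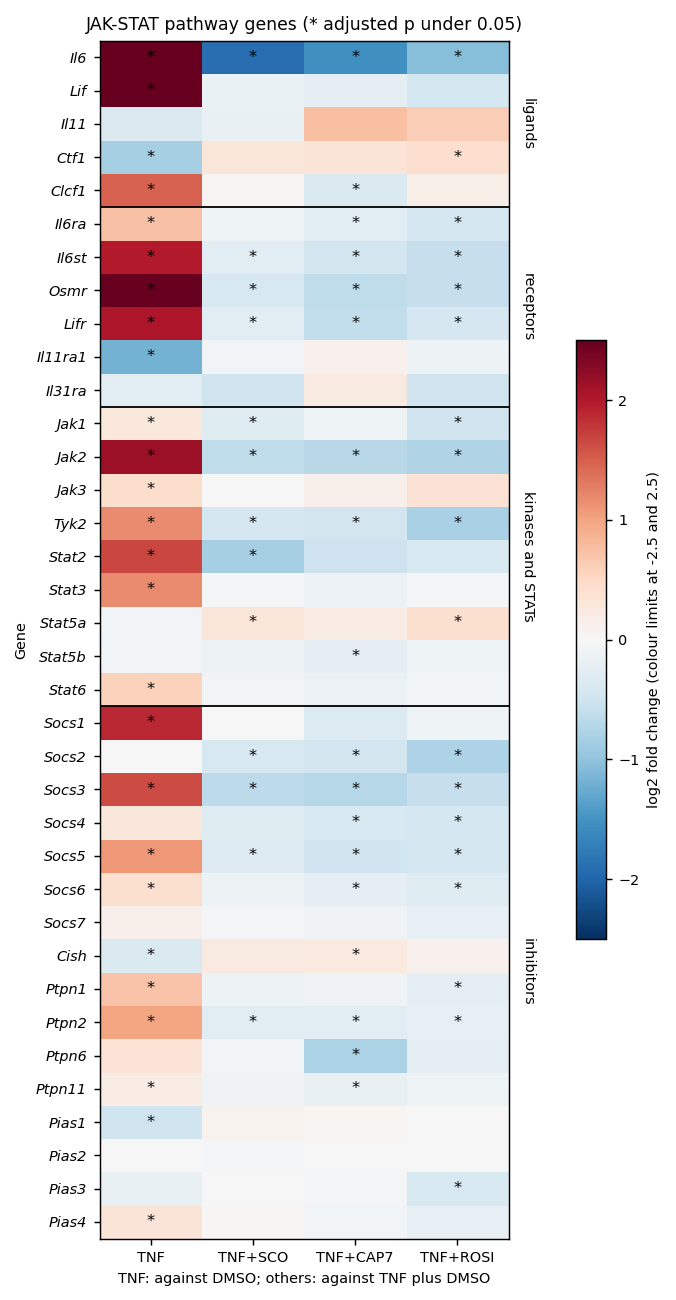
Log2 fold changes (colour, limits at -2.5 and 2.5) of tested pathway genes, members other than Csf1 and Il13ra2 included, grouped by role in rows. The columns are TNF against DMSO and TNF plus each compound against TNF plus DMSO, and stars mark an adjusted p under 0.05 by edgeR. Jak2, Tyk2 and Socs5 rise with TNF and are lower with each compound in its presence, while Il11ra1 and Ctf1 fall with TNF.

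Among the kinases and STATs, Jak2, a kinase bound to gp130, rose from a mean of 18.2 to 80.8 CPM with TNF (2.15 ± 0.10, adjusted p = 7.94e-21). With TNF present it was lower with SCO, CAP7 and ROSI, by -0.63 ± 0.09, -0.69 ± 0.09 and -0.75 ± 0.09. Tyk2, another JAK, followed it (1.17 ± 0.13 with TNF, and -0.43, -0.46 and -0.82 with the compounds, all called). Jak1, the kinase on which gp130 signalling mainly depends, had the smallest change of the 4 JAK genes with TNF (0.26 ± 0.09, adjusted p = 0.00911).

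Of the 16 genes in the inhibitor list, Socs3 among them, TNF raised 8 and lowered 2, where 26.7% and 27.5% of all genes were called higher and lower. Socs1 rose from 3.76 to 13.9 CPM (1.89 ± 0.22, adjusted p = 3.09e-09) and was called with no compound in the presence of TNF. Socs2, which restrains growth hormone signalling, was not called with TNF (0.01 ± 0.09) but was lower with every compound in both states, from -0.41 ± 0.09 for SCO with TNF to -1.11 ± 0.09 for ROSI without it. The phosphatase gene Ptpn2 rose by 0.99 with TNF and was lower by -0.27, -0.27 and -0.21 with the compounds.

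Ligands and receptors outside the set moved both ways. With TNF, Il11ra1, the IL-11 receptor chain, fell by 1.18 on the log2 scale, from 77.4 to 34.1 CPM. Clcf1, another gp130 ligand, rose from 6.02 to 16.8 CPM (1.48 ± 0.15, adjusted p = 1.31e-10). Osm, Cntf, Il27, Ebi3 and Il31 did not pass the filter, so the ligand of Osmr was not tested. Of the genes that shed the IL-6 receptor, Adam17 rose by 1.53 ± 0.08 with TNF, and its inhibitor Timp3 fell by 0.65 and was lower with each compound in both states.

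Genes next to Il13ra2 and Csf1 in their pathways also rose with TNF. Il13ra1, the signalling IL-13 receptor chain, rose from a mean of 0.888 to 49.98 CPM with TNF (5.83 ± 0.26, adjusted p = 5.43e-21) and was lower with SCO (-0.70 ± 0.17) and CAP7 (-0.76 ± 0.17) but not called with ROSI (-0.41 ± 0.17, adjusted p = 0.0549). Il34, the other ligand of the CSF1 receptor, rose from 2.26 to 9.03 CPM (2.00 ± 0.28, adjusted p = 1.22e-07) and was lower with CAP7 and ROSI in the presence of TNF. The receptor gene Csf1r itself was at 1.27 and 1.28 CPM without and with TNF (0.03, not called).

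Known STAT3 target genes, a list of 26 with 24 tested, showed 19 raised and 4 lowered by TNF (median log2 change 1.06), where 26.7% and 27.5% of all genes were called. Many of these genes are NF-κB targets as well. The largest calls were Saa3 (11.63 ± 0.22), Icam1, Lcn2 (5.57 ± 0.15), Timp1 (3.99 ± 0.16), Hp (3.94 ± 0.09) and Bcl3 (3.77 ± 0.12). Icam1 had no count in basal DMSO and reached a mean of 2.35 CPM, so it is given no fold. With TNF present the compounds split this list, with 5, 7 and 8 genes higher, where 13.2%, 18% and 19.6% of all genes were, and 9, 9 and 10 lower, where 8.09%, 14.2% and 16.3% were. The kinase gene Pim3 (1.12, 1.12 and 1.92) and Lrg1 (0.78, 0.93 and 1.55) were called higher with SCO, CAP7 and ROSI, and Cebpd, a transcription factor of early adipogenesis, was called lower (-0.79, -0.92 and -1.01). Timp1 (-0.96 and -1.23) and Serpina3n (-0.90 and -1.05) were called lower with SCO and CAP7, and the acute phase gene Saa3 (-1.05 and -1.03) with SCO and ROSI. At most 6 genes per comparison are named, by size of change, so a gene not named for a compound may still have been called with it.

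Across the 32 libraries, which fall into groups with and without TNF, the genes nearest to each member by Pearson correlation of log2 CPM were mostly TNF-raised genes, and the values describe that shared split. Csf1 lay nearest to Vcam1 (r = 0.996) and Ccl2 (0.994), Osmr to Ccl2 (0.994) and Ccl7 (0.993), and Lif to Nfkb2 (0.964), Ripk2 (0.962) and Tnfaip3 (0.961). Il6 lay nearest to Tor3a (0.936) and Socs3 (0.936), Socs3 to Actn1 (0.987), and Stat3 to Cd44 (0.991). Il6st lay nearest to Bid (0.993), Lifr to Pdpn (0.990), Il6ra to Ly96 (0.958) and Il13ra2 to Rab32 (0.979). With group means removed the same pairs gave lower values, from -0.03 for Il6st and Bid to 0.66 for Stat3 and Cd44.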

How the data were processed

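The assay was QuantSeq 3' mRNA sequencing, per the labels' protocols, of 4 libraries in each of 8 groups of 3T3-L1 adipocytes. The authors deposited a table of raw counts, with a row for each Ensembl gene and a column for each library. The submitters' processing notes name build GRCm39 and the tools STAR 2.7.11b, HTSeq 2.0.5, cutadapt 4.9, limma 3.60.6 and R 4.4.1. Which annotation and strand setting were used, and what was done with multi-mapping reads, is not given in the sources used here.

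Of 57186 genes listed, 14428 were kept by filterByExpr and tested. The model was edgeR's (4.0.16, in R 4.3.3) quasi-likelihood F test with TMM factors and a mean for each group over all 32 libraries, which leaves 24 residual degrees of freedom. P-values were adjusted by Benjamini-Hochberg over all tested genes in each of 19 comparisons. CPM used TMM-scaled totals. Symbols came from a GENCODE table, and promoters from RefSeq on GRCm38.p6, where all 10 members had an entry. Intervals on ratios of summed counts cover counting error only.

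The members and gene lists were chosen with earlier results of these data known. All members are named, as are pathway genes by role, at most 6 STAT3 targets per comparison by size of change, and up to 3 neighbours per member. Some pathway genes are counted in the totals but not reported here by name. The motif search, the shares of the TNF rise and the count ratios were added after values had been seen.

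The fit was tested on simulated counts with known changes. It missed the criterion first set for recovery of large changes because genes with few counts were not recovered, and after this was seen the criterion was limited to better counted genes, which were all recovered at the largest change. Genes with few counts, such as Il6 and Lif without TNF, are therefore weakly tested.

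The alternatives were RLE factors, library size alone, no filter, at least 5 CPM in 4 libraries, DESeq2 1.42.0, limma-voom (limma 3.58.1), a replicate block, only the groups compared, and leaving out each library.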

Additional observations from a re-analysis of the deposited data

Results flagged for a closer look

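In 5 of the 80 groups of 4 libraries (10 members in 8 groups), 1 library lay apart from the other 3 by Dixon's criterion. Lif accounted for 3 of them, with 0.217 CPM in basal DMSO replicate 1, 0.174 CPM in basal SCO replicate 4 and 0.0609 CPM in basal CAP7 replicate 3, where the other 3 libraries of each group had no count. With 3 libraries at 0 and 1 above it the criterion is always met, so for these it says nothing beyond the few counts. For the other 2, chance meets the criterion in about 1 in 20 groups. Csf1 in TNF plus DMSO replicate 1 stood at 372 CPM, below the next library at 400 CPM, and Il6st in basal CAP7 replicate 1 at 65.5 CPM, above the next at 57.4 CPM.

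By the interaction test of edgeR, run for 10 members with each compound, 4 differences between a compound and DMSO were called as depending on TNF. They were Csf1 with ROSI (0.37 on the log2 scale), Il6st with ROSI (-0.28), and Il13ra2 with SCO (-1.997) and with CAP7 (-2.20). Of all genes, 10.1% were called higher and 4.51% lower for ROSI, 1.13% lower for SCO and 5.92% lower for CAP7. With 10 members, the counts for ROSI and CAP7 lie near these shares. The report gives the libraries and settings on which these calls rest.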

How the results depend on the processing

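No called value of a member changed direction under any alternative that could be fitted. Values of opposite sign, called in neither fit, made up 52 of 3241 and belonged to 28 results. All 10 members stayed called higher by TNF under every alternative that tested them. Scaling by library size alone moved the median of all genes without TNF from -0.03 to -0.17 for ROSI and from -0.02 to -0.13 for CAP7. With TNF it moved from -0.001 to -0.16 for ROSI and from 0.001 to -0.10 for CAP7. The share of calls that were higher fell without TNF from 49.2% to 27.8% for ROSI and 50.3% to 28.8% for CAP7. With TNF this share fell from 54.6% to 31.7% and 55.8% to 36.9%. For SCO it fell from 53.4% to 35.3% without TNF and from 62% to 44.2% with it, and for the compound pairs it rose by up to 27.9 percentage points.

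The number of members called moved by over 1.5 times in these cases. For SCO against CAP7 without TNF (2), it was 1 with limma-voom, 0 with no filter, 1 with the replicate block, and 0 to 1 on leaving out a library. For CAP7 against ROSI without TNF (0), it was 1 with DESeq2, library size alone or no filter, and 0 to 1 on leaving out a library. For SCO against ROSI with TNF (2), it was 4 with limma-voom, 1 with only the groups compared, and 1 to 3 on leaving out a library. For SCO against CAP7 with TNF (1), it was 2 with DESeq2, library size alone, limma-voom or the replicate block, and 0 to 2 on leaving out a library. For the interactions, SCO (1) gave 2 with at least 5 CPM, DESeq2, only the groups compared or the replicate block, 0 with limma-voom, and 1 to 2 on leaving out a library; CAP7 (1) gave 0 with limma-voom and 1 to 2 on leaving out a library; and ROSI (2) gave 1 with limma-voom and 1 to 2 on leaving out a library.

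The replicate numbers were not taken to pair the samples, because 3 of 112 same-numbered pairs correlated over 0.1 (-0.106 to 0.157). Yet 16 of 32 libraries correlated best with their own number, where an even spread over the numbers would give 8, a hint from the data of some shared deviation. With the replicate block, of 190 member results 93 were called, of which 1 call was lost, and of the 97 others 3 were gained. Lif and Il6 are limited by counts: 81 to 116 counts of Lif per group with TNF and 1 to 5 without it. Over all genes, the number called moved by over 1.5 times for SCO against CAP7 without TNF, from 872 to 522 without basal SCO replicate 1. With TNF the same pair went from 1322 to 738 with only the groups compared, to 723 without TNF plus CAP7 replicate 1 and to 689 without TNF plus SCO replicate 3, and CAP7 against ROSI from 1237 to 791 with only the groups compared.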
